A study of Homo sapiens with 36 samples.

Results

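The genes described here are 10 nuclear genes of the mitochondrial unfolded protein response: the chaperone genes HSPD1, HSPE1, HSPA9 and TRAP1, the protease genes LONP1, CLPP, CLPX, YME1L1 and OMA1, and DELE1, which encodes the messenger of the OMA1-DELE1 relay. They form a list of names with no threshold on a value, drawn up with earlier results of these data known, and all 10 were found among the 61544 genes of the count table. All 10 were also among the 20767 genes with enough counts to be tested. Polyadenylated RNA had been sequenced from MIA PaCa-2 cells, an established human pancreatic cancer line, in 36 libraries. Every line carried a doxycycline-inducible Cas9 and guide system, and the guide targeted PELO, HBS1L or nothing (non-targeting control, NTC). PELO and HBS1L form the complex that releases ribosomes stalled on messenger RNA, and the study asked what their loss does in lines in which the SKI complex, an RNA exosome cofactor, is destabilized.

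The 12 groups hold 3 libraries each: the NTC, PELO and HBS1L lines, each without doxycycline (dox) or with dox at 2 µg/mL, collected at 48 h and at 96 h. All groups were grown in medium with tetracycline-free serum, so only the dox groups received the drug and the Cas9 induction together. No source used here states whether a line is 1 clone or a pool. The labels do not say that the replicates came from separate cultures, so the p-values measure the spread between these libraries, which may be technical. The library numbers of the 48 h and 96 h samples form separate blocks, so time and library block cannot be told apart.

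Mitochondria import most of their proteins unfolded, and a set of chaperones and proteases in the matrix and inner membrane folds or removes them. When unfolded proteins build up there, cells raise the genes of these chaperones and proteases, which is called the mitochondrial unfolded protein response. In mammalian cells much of this signal travels through the integrated stress response: the inner membrane protease OMA1 cuts DELE1, which activates the kinase HRI (EIF2AK1) and so the transcription factors ATF4, ATF5 and CHOP (DDIT3). Doxycycline is a tetracycline that can inhibit translation on mitochondrial ribosomes, so the NTC line with dox serves as the background for the other lines.

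The start regions of the genes are shown because HSPD1 and HSPE1 are transcribed in opposite directions from 1 shared region. HSPA9 and LONP1 carry the same 6 letters near their starts. Whether these letters have a part in the levels was not tested. Promoter windows of 300 bases, from 250 bases before to 50 after a start, were taken from RefSeq (GRCh38.p14). They matched 8 of the 10 genes, all but CLPP and YME1L1. In the sequences below, all 5′ to 3′, capitals mark the letters CACGTG, or TTCNNGAA where the line says so. The strand is in brackets.
Between the HSPD1 and HSPE1 starts, chr2:197500275-197500378 (+): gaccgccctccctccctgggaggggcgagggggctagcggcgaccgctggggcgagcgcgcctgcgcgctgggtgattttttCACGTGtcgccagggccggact
TTCNNGAA upstream of the alternative HSPD1 start, chr2:197500068-197500085 (-): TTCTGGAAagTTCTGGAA
HSPA9 start, chr5:138575402-138575431 (-): gcccctcacccCACGTGgttggaggtttcc
LONP1 start, chr19:5720178-5720207 (-): cgcgccgggcgtCACGTGcgtttcgcggcg

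The first sequence is the whole stretch of 104 bases between the RefSeq starts of HSPD1 (position 197500274) and HSPE1 (position 197500379). Its single CACGTG, the core of an E-box, lies in the windows of both genes. CACGTG was in the windows of 4 of the 8 genes (HSPD1, HSPE1, HSPA9 and LONP1) and in 7.26% of the 35116 windows of the same length for all genes. The 8 genes have 10 windows, so counts by gene and shares by window are unlike measures. HSPD1 and HSPE1 are counted for the same site. In LONP1 the letters begin at positions -49 and -212 relative to the start. The LONP1 line above prints only the match at -49, in a stretch that ends upstream of the start. TTCNNGAA, a pair of heat shock units in opposite orientation, was in the windows of HSPD1 and HSPA9 and in 7.74% of all windows. In HSPD1 it occurs as the pair printed above, and the letters between the pair also complete a match to GAANNTTC, which 6.77% of all windows hold. TGACGTCA, a cyclic AMP response element, was found for TRAP1 and in 1.85% of all windows. TGATGNAA, the core of the element bound by ATF4 and CHOP dimers, was in none of the windows of the 8 genes and in 3.62% of all windows, which says only that these letters are not in these windows. Both strands were searched. A match is a description of letters and not a site of binding.

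Levels are given in CPM, the usual count unit that divides a gene's counts by the library's total, here on library sizes scaled by the trimmed mean of M values. The libraries held 45356024 to 107436235 counts. The deepest was replicate 2 of the dox-treated PELO line at 96 h, and the next held 66704841. The lowest count of any of the 10 genes in any library was 660, for OMA1. In 7 groups 1 library stood apart, with a chi-square per degree of freedom to both others over 3 times that between the others. These were replicate 3 of the PELO controls at both times, replicate 1 of the PELO dox libraries at both times, replicate 3 of both NTC groups at 96 h and replicate 3 of the HBS1L dox libraries at 96 h. Their values to the others were 8.64 to 19.1, against 1.81 to 4.33 between the others. Leaving out all 7 was tried after seeing the data, and calls that it ended are named below. With dox in its own line, HBS1L fell to 36.2 CPM from 105.2 CPM at 48 h, and to 33.8 CPM from 110.7 CPM at 96 h. PELO messenger RNA in the PELO line was at 20.7 CPM with dox and 25.2 CPM without at 48 h (log2 change -0.29 ± 0.056, edgeR adjusted p = 5.01e-05). At 96 h it was at 28.3 and 29.1 CPM, which did not pass the test (adjusted p = 0.488). In the NTC line PELO also fell at 48 h (-0.16 ± 0.055, adjusted p = 0.022), so the level of PELO does not check the labels of its line. Of 7 epithelial markers, EPCAM and CDH1 had at most 3 counts in any library, while KRT8 and KRT18, the keratins of simple epithelia, had group means of at least 787.7 CPM (KRT18).

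Marker sums moved with dox in several lines, most in the PELO line at 96 h. The 7 epithelial markers summed to 1606 to 1956 CPM there, against 3349 to 3707 CPM without dox. Of the 5 that were tested, 1 rose and 3 fell by edgeR, where 34.4% of all genes rose and 32.5% fell. The 6 fibroblast markers summed to 30.7 to 34.8 CPM against 226.1 to 249.7 CPM, mostly COL1A2, with DCN and LUM at no more than 3 counts in any library. The 5 endothelial markers summed to 42.2 to 47.4 CPM against 84.1 to 90.9 CPM with PECAM1 at no more than 3 counts, and the 5 leukocyte markers to 0.488 to 0.778 CPM against 3.68 to 5.17 CPM with PTPRC and CD3E at no more than 3 counts. Dox in the PELO line at 48 h also lowered the fibroblast sum from 153.5 to 161.8 CPM down to 91.7 to 101.3 CPM, the endothelial sum from 100.6 to 107.9 CPM down to 56.3 to 64.5 CPM and the leukocyte sum from 3.41 to 3.59 CPM down to 1.62 to 2.24 CPM. The NTC and HBS1L lines went the other way at 48 h: fibroblast sums were 168.5 to 179.3 CPM without dox and 247.0 to 265.7 CPM with it (NTC), and 137.2 to 147.1 and 190.7 to 201.8 CPM (HBS1L), and leukocyte sums were 3.84 to 4.33 and 8.07 to 8.52 CPM (NTC), and 3.44 to 3.76 and 5.53 to 6.15 CPM (HBS1L). At 96 h both sums were lower with dox in these lines, with fibroblast sums of 231.2 to 238.7 and 191.7 to 217.8 CPM (NTC) and 204.0 to 213.2 and 154.0 to 178.9 CPM (HBS1L). The part of these markers in the changes below was not tested. All libraries came from 1 cell line, so the sums are levels of these genes and not counts of other cell types. Of the 5 leukocyte markers, 1 had enough counts to be tested. Bulk RNA cannot tell fewer cells with a message from less of it per cell.

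Per kilobase of exon, the 10 genes spanned a wide range. HSPD1, the matrix chaperonin HSP60, was the most abundant with a mean over groups of 393.4 CPM per kilobase. HSPA9, the matrix HSP70 (mortalin) that pulls in imported proteins, followed with 157.6 CPM per kilobase. HSPE1, the co-chaperonin that caps the HSP60 barrel, had 75.4, LONP1 62.7, TRAP1 51.9 and YME1L1 43.0 CPM per kilobase. The lowest were CLPP with 28.1, CLPX with 12.98, DELE1 with 8.36 and OMA1 with 4.19 CPM per kilobase. The lengths count all annotated exons of a gene, used or not, which affects the order. The HSPE1 value leaves out HSPE1-MOB4, a read-through gene that shares exons with it and had 147.1 CPM per kilobase. The place of HSPE1 in the order is thus uncertain.

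**Figure D1:**
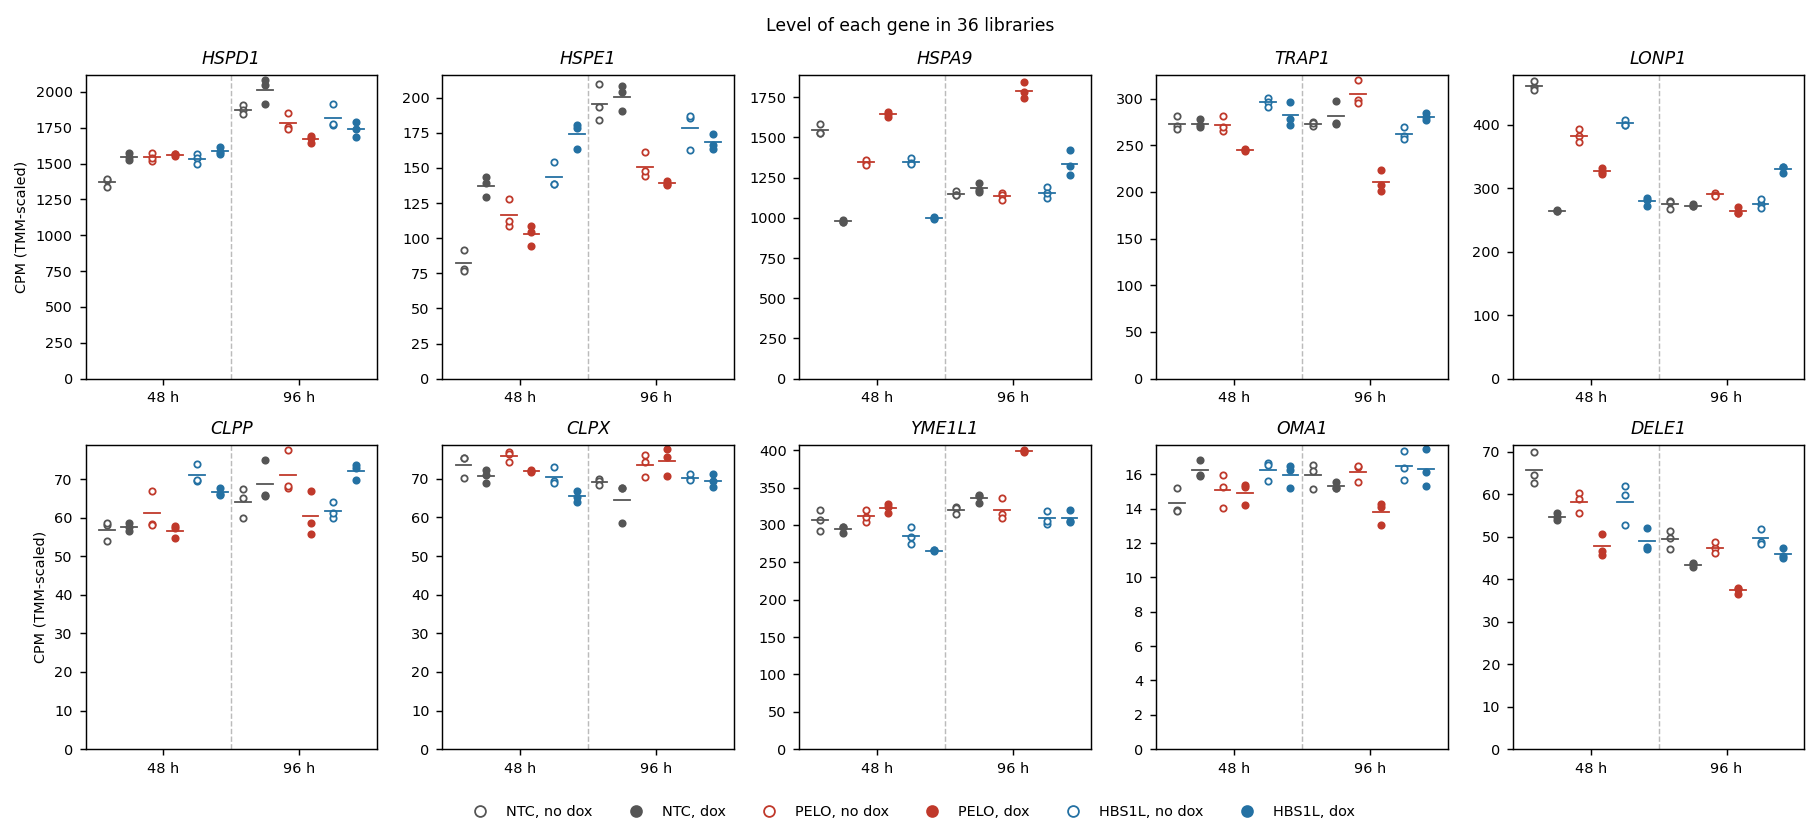
Level of each of the 10 genes in the 36 libraries, 1 panel per gene, in CPM on a linear axis that starts at 0. Points are libraries, bars are group means, and groups are ordered by time, line and dox. HSPA9 and LONP1 of the NTC line drop with dox at 48 h, HSPE1 rises there, and HSPA9 is highest in the PELO line with dox at 96 h.

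In the control line, dox at 48 h moved the genes in both directions. HSPA9 and LONP1 fell to about the lowest levels in the series, DELE1 fell less, and HSPE1, HSPD1 and OMA1 rose, so 3 of the 10 rose and 3 fell. Of all genes tested, 19.0% rose and 16.0% fell in the same comparison. At 96 h the NTC line showed little: DELE1 alone passed the test, by falling, where 3.63% of all genes fell and 3.89% rose. No member rose by edgeR's quasi-likelihood test, while 1 did at an unadjusted p under 0.05 and 1 did by DESeq2 (HSPD1).

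In the PELO line, dox raised HSPA9 and lowered LONP1, TRAP1, HSPE1 and DELE1 at 48 h (1 up and 4 down of 10, against 24.2% and 23.7% of all genes). At 96 h it raised HSPA9 and YME1L1 and lowered TRAP1, DELE1, CLPP, OMA1, LONP1 and HSPD1 (2 up and 6 down, against 34.4% and 32.5%). In the HBS1L line, dox at 48 h raised HSPE1 and lowered LONP1, HSPA9, DELE1 and YME1L1 (1 up and 4 down, against 10.1% and 11.4%). At 96 h it raised LONP1, HSPA9 and CLPP (3 up, against 11.0% of all genes). No member fell there by edgeR, where 8.9% of all genes did. At an unadjusted p under 0.05 the count was 1, and by DESeq2 it was 0.

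Called members moved in both directions in 4 of the 6 comparisons of dox with no dox, all but those of the NTC and HBS1L lines at 96 h. The median log2 change of the 10 genes ranged from -0.13 (PELO line, 96 h) to 0.040 (NTC line, 96 h), while the median of all genes lay between -0.020 and 0.017. The genes are described below by role.

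HSPA9 had the widest swing of the matrix chaperones apart from HSPE1, and the swing changed sign between lines. Within the NTC line at 48 h its libraries stood at 1529, 1530.1 and 1580.0 CPM without dox and at 987, 973 and 973 CPM with dox. Within the PELO line at 48 h they stood at 1343, 1362 and 1329.8 CPM without dox and at 1626, 1658 and 1647 CPM with dox. Within the HBS1L line at 48 h they stood at 1374, 1338 and 1337 CPM without dox and at 990.5 to 1003 CPM with dox. All dox libraries lay below their controls in the NTC and HBS1L lines and above them in the PELO line. The log2 changes were -0.66 ± 0.036 (SE) in the NTC line (adjusted p = 3.04e-17), 0.29 ± 0.036 in the PELO line (adjusted p = 1.92e-08) and -0.44 ± 0.036 in the HBS1L line (adjusted p = 7.32e-12), all by edgeR's quasi-likelihood test with Benjamini-Hochberg adjustment over 20767 genes, as for every adjusted p below.

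At 96 h the HSPA9 libraries of the NTC line overlapped, at 1164, 1143 and 1141 CPM without dox and 1215, 1174 and 1163 CPM with dox. HSPA9 in the PELO line went from 1155, 1143 and 1111 CPM to 1748, 1779 and 1847 CPM. The HBS1L libraries went from 1124, 1192 and 1151 CPM to 1267, 1321 and 1422 CPM. The dox libraries were above all controls in both guide lines. The rise was 0.66 ± 0.036 on the log2 scale in the PELO line (1.58-fold, adjusted p = 3e-18) and 0.21 ± 0.036 in the HBS1L line (1.16-fold, adjusted p = 4.98e-05).

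HSPD1 and HSPE1 encode the chaperonin and its cap and share the start region printed above. Over the 36 libraries their log2 CPM had a Pearson r of 0.819, a description over libraries that share groups and depth. Both were lowest in the NTC line without dox at 48 h and highest in the NTC line with dox at 96 h. HSPE1 ran over a 2.45-fold range of group means and HSPD1 over a 1.47-fold range.

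HSPE1 in the NTC line at 48 h rose from 91.8, 77.9 and 76.4 CPM to 129.4, 139.3 and 143.6 CPM with dox. Within the HBS1L line at 48 h it rose from 138.6, 138.5 and 154.2 CPM to 180.9, 178.6 and 163.3 CPM. Within the PELO line at 48 h it went from 109.0, 112.1 and 128.2 CPM to 94.6, 104.8 and 108.8 CPM. The groups did not overlap in any of these lines, but the PELO libraries moved down. The log2 changes were 0.74 ± 0.071 (adjusted p = 2.71e-10), 0.28 ± 0.070 (adjusted p = 0.00334) and -0.18 ± 0.071 (adjusted p = 0.0335) in the order given. The call in the PELO line was lost without replicate 3 of its controls, without replicate 1 of its dox libraries, or with only the libraries of that time in the fit. The first 2 are the libraries that stand apart in these groups, and with all such libraries left out the value was -0.050 ± 0.079 (adjusted p = 0.647).

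HSPE1 shares exons with HSPE1-MOB4, a read-through gene whose counts came to 87.8% of those of HSPE1, and 14.2% of its exonic length lies under HSPD1 on the opposite strand. How reads were shared among these genes is not stated in any source used here. Summed with HSPE1-MOB4, HSPE1 changed by 0.71 in the NTC line and 0.26 in the HBS1L line at 48 h and stayed past the threshold, while the PELO value of -0.15 did not (adjusted p = 0.0574). Pseudogenes could also take reads. The 18 listed for HSPD1 summed to 1.07 to 1.501% of its counts, and the 26 for HSPE1 to 0.467 to 1.56%.

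At 96 h HSPE1 passed the test in none of the lines, with log2 changes of 0.037 (NTC), -0.12 (PELO) and -0.085 (HBS1L). Its libraries with dox lay at 190.5 to 208.2 CPM in the NTC line, 138.0 to 140.6 CPM in the PELO line and 163.5 to 174.5 CPM in the HBS1L line, so the lines did not overlap. Without dox the means were 195.8, 150.9 and 178.4 CPM. There the PELO libraries lay below all others, while those of the NTC and HBS1L lines overlapped. The change with dox in the PELO line (-0.12) passed with only the libraries of that time in the fit.

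HSPD1 moved by much less. Within the NTC line at 48 h it rose from 1337, 1383 and 1389 CPM to 1573, 1527 and 1543 CPM, without overlap (log2 change 0.18 ± 0.038, adjusted p = 0.000292). At 96 h in the PELO line it went from 1752, 1738 and 1854 CPM to 1679.9, 1640.0 and 1689 CPM (-0.093 ± 0.038, adjusted p = 0.0286). This call was lost without replicate 3 of the controls, the highest of them, and with no filter on low counts. With the libraries that stand apart left out it was -0.067 ± 0.037 (adjusted p = 0.118). The groups at 96 h lay above those at 48 h in all lines: group means were 1369.6 to 1587 CPM at 48 h and 1669.7 to 2016 CPM at 96 h.

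TRAP1, the HSP90-type chaperone of the matrix, passed the test in neither the NTC nor the HBS1L line and fell in the PELO line. At 96 h it went from 298.7, 294.9 and 319.9 CPM to 223.7, 207.3 and 201.2 CPM for PELO, the lowest group of the 12. The fall was -0.53 ± 0.041 on the log2 scale, to 0.692 of the control (adjusted p = 4.48e-14). At 48 h in the same line its libraries fell from 265.1 to 281.4 CPM down to 244.4 to 245.7 CPM (-0.15 ± 0.041, adjusted p = 0.00239). Within the NTC line it stood at 273.0 and 273.2 CPM at 48 h without and with dox, and at 273.0 and 281.7 CPM at 96 h. The HBS1L libraries at 96 h lay at 256.9 to 269.3 CPM without dox and above that, at 277.3 to 284.9 CPM, with dox (0.099 ± 0.041, adjusted p = 0.0873). That value passed once the libraries that stand apart were left out (0.11 ± 0.034, adjusted p = 0.0161). DNASE1 lies over 29.3% of its exonic length on the opposite strand, with 2.08% of its counts.

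LONP1, the ATP-dependent matrix protease that degrades oxidized and misfolded proteins, fell with HSPA9 in the NTC line but parted from it in the PELO line. Within the NTC line at 48 h it went from 460.3, 469.0 and 454.8 CPM to 264.0, 263.8 and 265.3 CPM (-0.80 ± 0.032 on the log2 scale, adjusted p = 2.96e-21). Within the HBS1L line at 48 h it went from 408.5, 400.3 and 400.1 CPM to 272.9, 284.1 and 281.1 CPM (-0.53 ± 0.032, adjusted p = 1.61e-15). Within the PELO line at 48 h it went from 382.7, 373.2 and 393.2 CPM to 332.3, 325.5 and 322.3 CPM (-0.23 ± 0.032, adjusted p = 1.9e-07). Its dox libraries were below the controls in all 3 lines, whereas those of HSPA9 were above them in the PELO line.

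At 96 h LONP1 in the NTC line overlapped, at 267.0 to 280.2 CPM without dox and 271.6 to 275.1 CPM with it. Within the HBS1L line it rose from 275.4, 283.3 and 269.6 CPM to 323.5, 333.6 and 334.0 CPM (0.26 ± 0.032, adjusted p = 1.91e-07). Within the PELO line it fell from 293.4, 288.9 and 288.7 CPM to 270.8, 261.2 and 260.8 CPM (-0.14 ± 0.032, adjusted p = 0.000347), a call lost with no filter on low counts. RPL36, an abundant ribosomal protein gene, covers 0.846% of the exonic length of LONP1 on the opposite strand. Its counts came to 162.5% of those of LONP1.

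CLPP and CLPX form the second matrix protease, CLPP as the peptidase and CLPX as the unfoldase that feeds it. CLPP in the PELO line at 96 h went from 67.6, 68.1 and 77.6 CPM to 66.8, 58.5 and 55.7 CPM (-0.24 ± 0.061, adjusted p = 0.000862). It rose in the HBS1L line at 96 h, from 64.2, 59.8 and 61.1 CPM to 73.7, 72.8 and 69.6 CPM (0.22 ± 0.061, adjusted p = 0.00814). CLPX was called in none of the 17 comparisons, and its group means spanned 64.6 to 75.9 CPM. Its lowest adjusted p was 0.0831, in the HBS1L line at 48 h (-0.11 ± 0.045), where the dox libraries lay below all controls. That value passed the test with only the libraries of that time in the fit.

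YME1L1, the inner membrane protease that faces the intermembrane space and processes OPA1, rose in the PELO line at 96 h. Its libraries went from 315.4, 309.5 and 336.8 CPM to 400.3, 397.1 and 398.7 CPM there (0.31 ± 0.038, adjusted p = 3.12e-09), above every other library of the series. YME1L1 in the HBS1L line at 48 h went from 297.5, 284.0 and 274.7 CPM to 265.9, 265.5 and 266.0 CPM (-0.10 ± 0.038, adjusted p = 0.0496). That call was lost without any 1 of 5 libraries (replicates 1 and 2 of the controls and each dox replicate), with a replicate block, with limma on the authors' log2 table and with no filter. MASTL, on the opposite strand, covers 6.04% of its exonic length.

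OMA1, the stress-activated inner membrane protease that starts the relay, had the lowest level of the 10 genes and a narrow range of group means, from 13.8 to 16.5 CPM. Within the PELO line at 96 h it went from 16.4, 16.5 and 15.5 CPM to 14.3, 13.1 and 14.1 CPM (-0.23 ± 0.058, adjusted p = 0.000659). Within the NTC line at 48 h it went from 15.2, 13.95 and 13.9 CPM to 15.9, 16.0 and 16.8 CPM (0.18 ± 0.058, adjusted p = 0.0146). The latter call was lost without replicate 2 or 3 of the controls or without replicate 3 of the dox libraries. DAB1 covers 6.91% of its exonic length on the same strand, with 21.1% of its counts.

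DELE1, which carries the signal from OMA1 to the cytosol, was below the controls with dox in every line at both times. At 48 h it went from 62.6, 69.9 and 64.6 CPM to 55.7, 54.6 and 53.8 CPM in the NTC line (-0.26 ± 0.052, adjusted p = 8.74e-05). Within the PELO line it went from 60.3, 58.9 and 55.6 CPM to 50.7, 46.8 and 45.7 CPM (-0.29 ± 0.052, adjusted p = 1.6e-05). Within the HBS1L line it went from 59.9, 62.0 and 52.8 CPM to 47.2, 47.6 and 52.1 CPM (-0.25 ± 0.052, adjusted p = 0.000379). The log2 changes at 48 h thus lay within 1 SE of each other.

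At 96 h DELE1 fell in the PELO line from 47.3, 48.7 and 46.2 CPM to 36.6, 37.8 and 37.9 CPM (-0.34 ± 0.053, adjusted p = 5.28e-07). Within the NTC line it went from 49.8, 51.5 and 47.0 CPM to 42.9, 43.7 and 43.6 CPM (-0.19 ± 0.052, adjusted p = 0.0238). In the HBS1L line it went from 48.7, 48.3 and 51.8 CPM to 47.3, 45.0 and 45.6 CPM (-0.11 ± 0.052), which did not pass (adjusted p = 0.134). The NTC call at 96 h was lost without replicate 1 or 2 of the controls, without replicate 1 or 3 of the dox libraries, or with no filter.

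**Figure D2:**
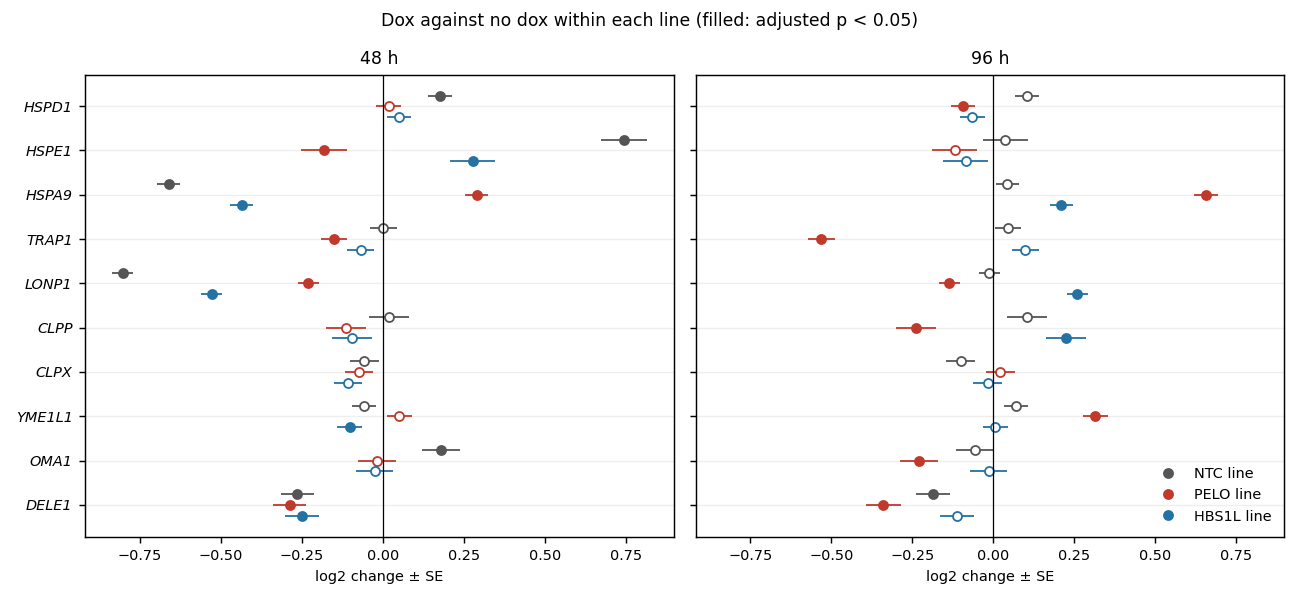
Log2 change with dox (point, with its SE as a bar) of each gene in the NTC, PELO and HBS1L lines, at 48 h on the left and 96 h on the right. Filled points passed an adjusted p of 0.05. HSPA9 is on opposite sides of 0 in the NTC line (-0.66) and the PELO line (0.29) at 48 h, while DELE1 is left of 0 in every line.

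The response of a guide line was next compared with that of the NTC line at the same time, by testing the difference of the 2 changes. Both guide lines share the NTC libraries in these comparisons, so their values are not independent of each other. The difference also rests on the levels without dox, which are given further on.

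Against the NTC response at 48 h, the response of the PELO line was higher for HSPA9 (0.95 ± 0.051 on the log2 scale, adjusted p = 1.11e-17) and LONP1 (0.57 ± 0.046, adjusted p = 4.55e-13). It was lower for HSPE1 (-0.93 ± 0.10, adjusted p = 1.99e-09), HSPD1 (-0.16 ± 0.053, adjusted p = 0.0134), TRAP1 (-0.15 ± 0.058, adjusted p = 0.0294) and OMA1 (-0.20 ± 0.083, adjusted p = 0.0489). That made 2 up and 4 down of 10, where 22.9% and 24.9% of all genes did so. The calls of TRAP1 and OMA1 were lost under DESeq2 and under RLE normalization, which left 2 down. The TRAP1 call was also lost without replicate 3 of either NTC group or of the PELO controls. The OMA1 call was also lost without replicate 2 or 3 of the NTC or PELO controls, replicate 3 of the NTC dox libraries or replicate 1 of the PELO dox libraries, with a replicate block, and with no filter. Both were lost with only the libraries of that time in the fit, and OMA1 with the libraries that stand apart left out (-0.15 ± 0.093, adjusted p = 0.175).

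The LONP1 value shows what such a difference holds. LONP1 went down with dox in both lines, and the positive difference came from a smaller fall in the PELO line, which also started lower. With dox at 48 h its group means were 264.4 CPM in the NTC line, 326.7 CPM in the PELO line and 279.4 CPM in the HBS1L line.

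At 96 h the PELO line had higher HSPA9 (0.61 ± 0.051, adjusted p = 8.22e-13) and YME1L1 (0.24 ± 0.054, adjusted p = 0.000178) than the NTC response. TRAP1 was lower (-0.58 ± 0.058, adjusted p = 9.23e-11), as were CLPP (-0.34 ± 0.087, adjusted p = 0.00102), HSPD1 (-0.20 ± 0.053, adjusted p = 0.00185) and LONP1 (-0.12 ± 0.046, adjusted p = 0.0209). In all, 2 of 10 were up and 4 down, where 28.7% and 26.0% of all genes were. The LONP1 call was lost with no filter on low counts. DELE1 (-0.15 ± 0.074, adjusted p = 0.0802) and OMA1 (-0.17 ± 0.081, adjusted p = 0.0738) were not called by edgeR. Both passed with limma on the authors' log2 table, which gave 6 down, and without some single libraries.

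The HBS1L line differed from the NTC response in fewer genes. At 48 h the response was higher for LONP1 (0.28 ± 0.046, adjusted p = 0.000215) and HSPA9 (0.23 ± 0.051, adjusted p = 0.00651) and lower for HSPE1 (-0.47 ± 0.099, adjusted p = 0.00431). LONP1 and HSPA9 fell with dox in both lines, and HSPE1 rose in both. HSPE1 went from 143.8 to 174.3 CPM in the HBS1L line and from 82.0 to 137.4 CPM in the NTC line. The calls were 2 up and 1 down of 10, where 1.41% and 2.44% of all genes were called. The HSPA9 call was lost with no filter. At 96 h the response was higher for LONP1 (0.27 ± 0.046, adjusted p = 8.97e-05) and HSPA9 (0.17 ± 0.051, adjusted p = 0.0298). It was lower for HSPD1 (-0.17 ± 0.053, adjusted p = 0.0355), where 5.41% of all genes were up and 5.32% down. The HSPA9 call at 96 h was lost without any 1 of 7 of the libraries of that comparison, and so was the HSPD1 call. For HSPA9 these were replicates 1 and 2 of the NTC controls, 2 and 3 of the NTC dox libraries, 1 and 3 of the HBS1L controls and 3 of the HBS1L dox libraries. For HSPD1 they were replicates 2 and 3 of the NTC controls, 1 and 3 of the NTC dox libraries, 2 of the HBS1L controls and 1 and 2 of the HBS1L dox libraries. Both calls were also lost with no filter and with only the libraries of that time, that of HSPD1 with a replicate block, and that of HSPA9 with the libraries that stand apart left out (0.11 ± 0.044, adjusted p = 0.0752).

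**Figure D3:**
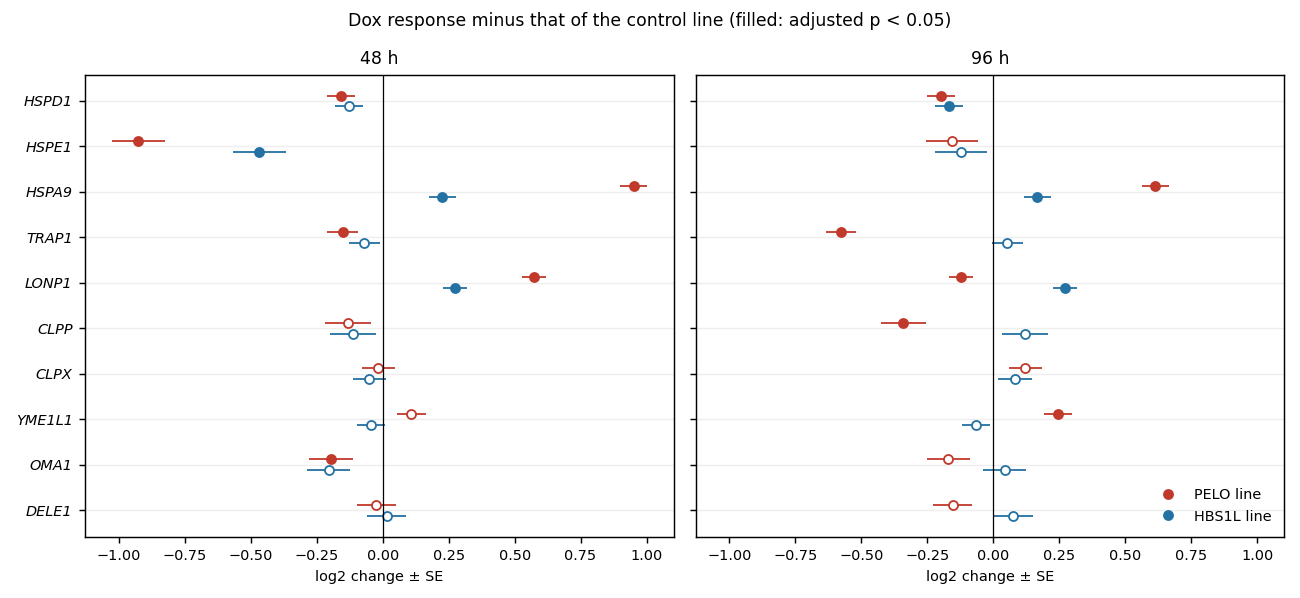
Log2 change with dox in the PELO and HBS1L lines minus that in the NTC line (point, with its SE as a bar), at 48 h on the left and 96 h on the right. Filled points passed an adjusted p of 0.05. HSPA9 lies right of 0 in all 4 cases, and LONP1 does in all but the PELO line at 96 h (-0.12).

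The responses of the PELO and HBS1L lines were also compared directly, in which the NTC terms cancel. At 48 h the PELO response was higher for HSPA9 (0.72 ± 0.051, adjusted p = 3.36e-14), LONP1 (0.30 ± 0.046, adjusted p = 1.22e-06) and YME1L1 (0.15 ± 0.054, adjusted p = 0.0193), and lower for HSPE1 (-0.46 ± 0.099, adjusted p = 0.000278). The 3 up and 1 down compare with 21.9% and 21.3% of all genes. The YME1L1 call was lost without replicate 1 of the PELO or HBS1L controls or replicate 2 or 3 of the PELO dox libraries, and with no filter.

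At 96 h the PELO response was higher for HSPA9 (0.45 ± 0.051, adjusted p = 1.75e-09) and YME1L1 (0.31 ± 0.054, adjusted p = 5.92e-06). It was lower for TRAP1 (-0.63 ± 0.058, adjusted p = 1.04e-11), CLPP (-0.46 ± 0.087, adjusted p = 2.1e-05), LONP1 (-0.39 ± 0.046, adjusted p = 2.13e-09), DELE1 (-0.23 ± 0.074, adjusted p = 0.00849) and OMA1 (-0.21 ± 0.081, adjusted p = 0.0239). The 2 up and 5 down compare with 29.1% and 26.4% of all genes. The OMA1 call was lost without replicate 2 of the PELO dox libraries, the deepest library, without replicate 2 of the HBS1L dox libraries, or with no filter. LONP1 and CLPP thus moved in opposite directions in these lines at 96 h, down in the PELO line and up in the HBS1L line.

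The response of the NTC line at 96 h differed from that at 48 h for 4 genes. It was higher for LONP1 (0.79 ± 0.046, adjusted p = 3.49e-16) and HSPA9 (0.70 ± 0.051, adjusted p = 1.73e-13) and lower for HSPE1 (-0.71 ± 0.099, adjusted p = 1.17e-06) and OMA1 (-0.24 ± 0.082, adjusted p = 0.0279), where 12.3% of all genes were up and 14.1% down. The untreated levels differed as well: HSPA9 without dox in the NTC line was 1547 CPM at 48 h and 1149 CPM at 96 h, and LONP1 was 461.4 and 275.3 CPM. With dox LONP1 was at 264.4 and 272.9 CPM at these times. The OMA1 call was lost with no filter and without any 1 of 7 libraries of the NTC line (replicates 2 and 3 of both control groups, replicate 3 of the dox group at 48 h and replicates 1 and 2 of that at 96 h).

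Before induction the lines were not alike at 48 h. Against the NTC line without dox, the HBS1L line had 5 genes up and 4 down, where 18.7% and 19.2% of all genes were. HSPE1 (0.81 ± 0.071, adjusted p = 2.42e-10) and CLPP (0.32 ± 0.062, adjusted p = 6.87e-05) were among those up, and HSPA9 (-0.20 ± 0.036, adjusted p = 4.28e-05) and LONP1 (-0.20 ± 0.032, adjusted p = 8.69e-06) among those down. Without replicate 3 of the NTC controls the calls of TRAP1, OMA1 and YME1L1 were lost, which left 3 up and 3 down, and without replicate 3 of the HBS1L controls 2 were down. All genes of mitochondrial DNA in the count table, not its messengers alone, took 3.57 to 3.77% of the counts in these HBS1L libraries. In those of the NTC line they took 2.43 to 2.59%. The part of this in the differences was not tested.

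The PELO line without dox at 48 h had 2 up and 3 down, where 6.37% and 4.72% of all genes were. HSPE1 was higher (0.51 ± 0.071, adjusted p = 5.94e-06), and LONP1 (-0.27 ± 0.032, adjusted p = 2.2e-07) and HSPA9 (-0.20 ± 0.036, adjusted p = 0.000163) were lower. The call of DELE1, also down, was lost without replicate 2 of the NTC or replicate 3 of the PELO controls, and with the libraries that stand apart left out (-0.14 ± 0.052, adjusted p = 0.0725). The NTC controls at 48 h thus had the lowest HSPE1 and the highest LONP1 of all groups, and every comparison with them carries this.

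At 96 h fewer of the 10 genes were called between the untreated lines than at 48 h. Of all genes, a larger share was called than at 48 h for the PELO line and a smaller one for the HBS1L line. The PELO line had TRAP1 up (0.16 ± 0.041, adjusted p = 0.00451) and HSPE1 down (-0.38 ± 0.070, adjusted p = 0.000149), 1 of 10 in each direction, where 10.3% and 11.5% of all genes were. In the HBS1L line none of the 10 genes was called by edgeR, where 0.0867% of all genes were up and 0.0482% down. There the count at an unadjusted p under 0.05 was 0, and by DESeq2 it was also 0.

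The integrated stress response list holds 17 genes, the 4 kinases that phosphorylate eIF2 alpha and 13 genes downstream of them. In the NTC line at 48 h dox lowered 13 of the 17 and raised 2, against 16.0% and 19.0% of all genes. ATF5, the factor tied to mitochondrial stress, went from 430.7 to 128.9 CPM (-1.74 ± 0.044, adjusted p = 4.27e-27), and TRIB3, a pseudokinase induced by ATF4, from 277.7 to 49.1 CPM (-2.50 ± 0.061, adjusted p = 3.9e-27). In the HBS1L line at 48 h 13 fell too, against 11.4% of all genes. In the PELO line at 48 h 10 rose and 5 fell, against 24.2% and 23.7% of all genes. The smallest adjusted p was that of ATF3, a stress-induced transcription factor, which went from 14.4 to 72.0 CPM (2.33 ± 0.087, adjusted p = 2.47e-21).

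At 96 h dox raised 12 of the 17 genes and lowered 4 in the PELO line, and raised 12 in the HBS1L line. Of all genes, 34.4% rose and 32.5% fell in the PELO line, and 11.0% rose in the HBS1L line. PPP1R15A, which directs the dephosphorylation of eIF2 alpha, in the PELO line rose to 324.0 CPM from 47.7 CPM (2.76 ± 0.067, adjusted p = 2.09e-28). PHGDH, the first enzyme of serine synthesis, rose by 0.95 ± 0.044 in the HBS1L line (adjusted p = 2.87e-18). In the NTC line none of the 17 was called by edgeR, 2 were lower at an unadjusted p under 0.05, and none was called by DESeq2. There 3.89% of all genes rose and 3.63% fell by edgeR. EIF2AK1, the kinase that DELE1 activates, fell in the PELO line by 0.40 at 96 h (-0.40 ± 0.038, adjusted p = 5.52e-12).

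The mean of these 17 genes gives their joint level in a group. At 48 h their mean log2 CPM without and with dox was 6.43 and 4.96 for NTC, 6.10 and 6.64 for PELO, and 6.12 and 5.06 for HBS1L. At 96 h it was 5.07 and 5.01, 5.28 and 6.38, and 5.13 and 5.70 in the same order. HSPA9 fell where this mean fell and rose where it rose in the 5 comparisons in which HSPA9 passed the test.

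LONP1 did so where it passed the test in the NTC and HBS1L lines, but in the PELO line it fell at both times while the mean rose. There its level with dox at 96 h, 264.3 CPM, was the lowest group mean of the series beside that of the NTC line with dox at 48 h (264.4 CPM), although the stress response mean was 6.38 in the former and 4.96 in the latter. Both genes carry CACGTG near the start, as printed above. HSPD1 and HSPE1, which share that stretch, were highest in the NTC line at 96 h, where the stress response mean was 5.01 to 5.07.

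**Figure D4:**
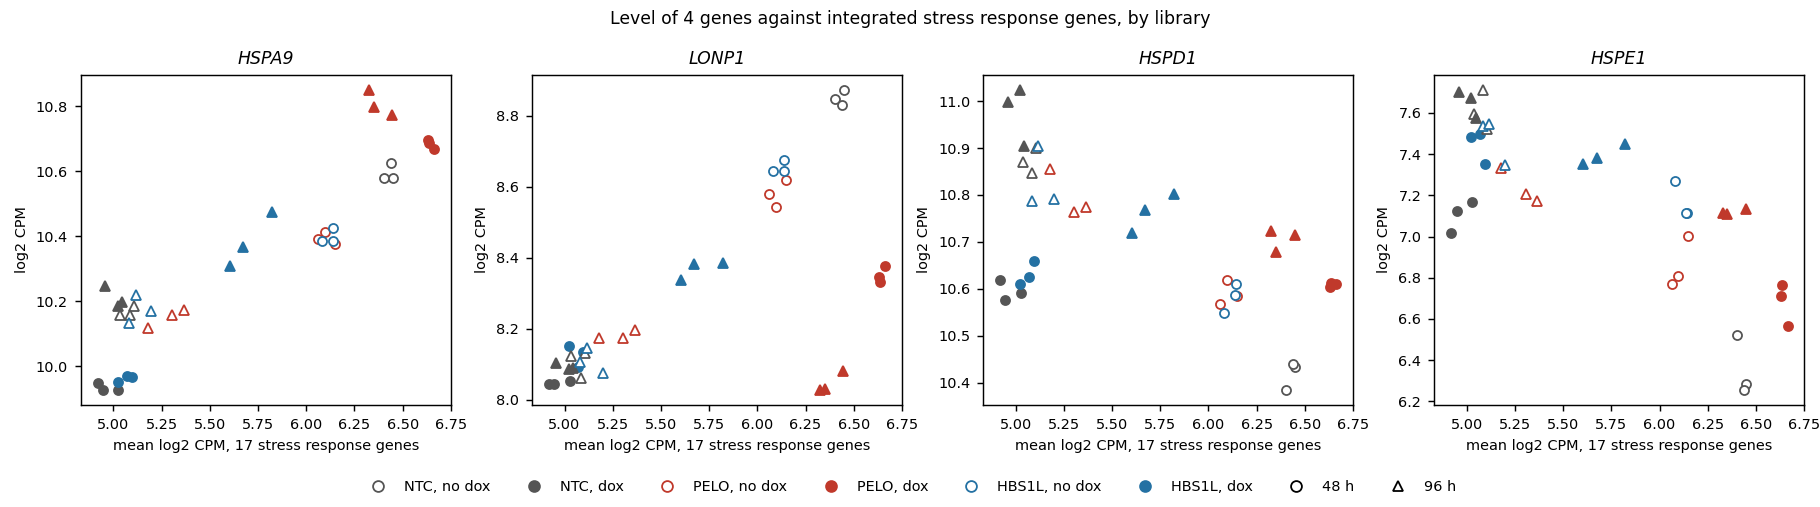
Level of 4 of the genes (log2 CPM, vertical axis) against the mean log2 CPM of the 17 integrated stress response genes (horizontal axis), 1 point per library. Colours are lines, circles are 48 h, triangles are 96 h, and filled points had dox. HSPA9 climbs with the stress response mean, and the LONP1 points of the PELO line with dox at 96 h lie at the bottom (264.3 CPM) although their stress response mean is 6.38.

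The genes whose pattern over the 36 libraries was most like each member were taken among genes with a mean of at least 10 CPM, by Pearson r of log2 CPM. The libraries share lines, treatments and depth, and no p is given. HSPA9 was most like CEBPG (0.977), LURAP1L (0.969) and CEBPB (0.963), of which CEBPG and CEBPB are basic leucine zipper transcription factors. LONP1 was most like GPT2 (0.968), the mitochondrial alanine aminotransferase, and CBS (0.947), the first enzyme of transsulfuration, with ENSG00000274276 (0.950) between them. HSPD1 was most like PRIM2 (0.961), a subunit of the DNA primase, ESCO2 (0.948), a cohesin acetyltransferase, and VCP (0.947), the AAA ATPase that extracts ubiquitinated proteins. HSPE1 was most like its read-through HSPE1-MOB4 (0.994), then HMGB1 (0.967), a chromatin protein, and NBL1 (0.961).

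TRAP1 was most like TMEM101 (0.963), YIF1B (0.949) and CHID1 (0.949). CLPP was most like SLC25A5 (0.929), an ADP/ATP carrier, COX4I1 (0.922), a subunit of cytochrome c oxidase, and ELOB (0.915). YME1L1 was most like PLEKHB2 (0.966), and DELE1 like SLC35E2B (0.953). The 2 genes that moved least had the weakest partners: OMA1 with CENPH (0.802), a kinetochore protein, and CLPX with TLK1 (0.743), a kinase of chromatin assembly.

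Among the members HSPA9 and LONP1 had an r of 0.440. LONP1 and DELE1 had 0.724, and LONP1 and HSPE1 -0.690. CLPP and CLPX, the parts of 1 protease, had -0.516.

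Other mitochondrial chaperones and their partners were followed as a list of 9 genes. In the NTC line at 48 h dox lowered 3 and raised 1, against 16.0% and 19.0% of all genes. GRPEL2, a nucleotide exchange factor of the matrix HSP70, went from 76.4 to 42.8 CPM (-0.84 ± 0.052, adjusted p = 1.04e-15). TIMM44, which tethers that HSP70 to the import channel, went from 111.3 to 76.7 CPM (-0.54 ± 0.038, adjusted p = 3.86e-14).

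In the PELO line at 96 h all 9 passed the test, 6 up and 3 down, against 34.4% and 32.5% of all genes. TIMM44 rose from 89.2 to 123.5 CPM (0.47 ± 0.038, adjusted p = 1.14e-13). CLPB, the disaggregase of the intermembrane space, fell from 24.8 to 16.1 CPM (-0.62 ± 0.054, adjusted p = 9.84e-13). In the HBS1L line at 96 h 2 rose, PAM16 (0.32 ± 0.076, adjusted p = 0.00216) and HSCB (0.22 ± 0.073, adjusted p = 0.0284). Of all genes, 11.0% rose there.

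Of 12 other mitochondrial proteases and processing peptidases, dox raised 5 and lowered 1 in the NTC line at 48 h. All genes had 19.0% up and 16.0% down there. The PELO line had 5 lower and 1 higher at 48 h, against 23.7% and 24.2% of all genes. At 96 h it had 6 lower and 3 higher, against 32.5% and 34.4%. PMPCA, a subunit of the peptidase that removes import signals, rose in the NTC line at 48 h (0.25 ± 0.040, adjusted p = 2.72e-06) and fell in the PELO line at 48 h (-0.34 ± 0.040, adjusted p = 5.04e-09) and 96 h (-0.70 ± 0.040, adjusted p = 8.64e-18). ATP23, a metalloprotease that helps assemble ATP synthase, was at 6.58 CPM with dox and 16.7 CPM without for PELO at 96 h (-1.35 ± 0.082, adjusted p = 5.47e-17).

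The 6 substrates and partners of OMA1 and YME1L1 were divided in the PELO line. At 48 h 2 were up and 2 down, against 24.2% and 23.7% of all genes. At 96 h 3 were up and 2 down, against 34.4% and 32.5%. TIMM17A, an import channel subunit that YME1L1 degrades, rose from 129.3 to 205.8 CPM at 96 h (0.67 ± 0.063, adjusted p = 9.3e-12). OPA1, the inner membrane fusion GTPase cut by both proteases, fell from 262.0 to 183.1 CPM at 48 h (-0.52 ± 0.039, adjusted p = 8.97e-14). PHB2, a prohibitin, fell by 0.29 at 96 h (-0.29 ± 0.049, adjusted p = 2.07e-06). Of the 6, 3 rose in the NTC line at 48 h, against 19.0% of all genes. TIMM17A was among them (0.52 ± 0.064, adjusted p = 4.3e-08).

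Of 16 import genes, dox raised 8 and lowered 3 in the PELO line at 96 h, against 34.4% and 32.5% of all genes. The smallest adjusted p were those of TIMM8A (0.82 ± 0.050, adjusted p = 4.6e-17) and TIMM9 (0.83 ± 0.055, adjusted p = 4.51e-16), which encode small chaperones of the intermembrane space. TOMM6, a small subunit of the outer membrane pore, rose in the NTC line at 48 h by 0.75 ± 0.057 (adjusted p = 3.26e-13).

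The list of mitochondrial one-carbon and proline enzymes holds 6 genes, several of them known targets of ATF4. Of the 6, 5 fell in the NTC line at 48 h, against 16.0% of all genes. MTHFD2 went from 568.1 to 240.2 CPM (-1.24 ± 0.041, adjusted p = 1.73e-23). At 96 h in that line 1 fell, against 3.63% of all genes. By edgeR none of the 6 rose there, where 3.89% of all genes did. Of the 6, 2 rose at an unadjusted p under 0.05 and 0 by DESeq2. In the HBS1L line 5 fell at 48 h and 5 rose at 96 h, against 11.4% and 11.0% of all genes. For PELO 2 rose and 2 fell at 48 h, against 24.2% and 23.7%. In the PELO line at 96 h MTHFD1L rose from 79.3 to 137.8 CPM (0.80 ± 0.041, adjusted p = 3.82e-19) while SHMT2 fell from 229.2 to 172.9 CPM (-0.41 ± 0.043, adjusted p = 1.28e-10). The other 4 of that list did not pass the test there, where 34.4% of all genes rose and 32.5% fell.

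The 13 messengers encoded by mitochondrial DNA are the products whose translation dox can inhibit. All genes whose symbol starts with MT-, a set not limited to these messengers, took 2.11 to 3.77% of a library's counts at 48 h. At 96 h they took 0.922 to 2.14%. None of the 13 messengers was called by edgeR in the NTC line at 48 h or 96 h. Of all genes, 19.0% rose and 16.0% fell there at 48 h, and 3.89% and 3.63% at 96 h. At an unadjusted p under 0.05, 1 messenger was lower at 48 h and 2 were higher at 96 h. By DESeq2 1 was lower at 48 h and 0 were called at 96 h. In the PELO line at 96 h 9 of the 13 fell, against 32.5% of all genes. MT-CO3, a subunit of cytochrome c oxidase, was at -0.50 ± 0.18 (adjusted p = 0.0153). Its level went from 1966 to 1393 CPM, and the NTC line without dox at that time was at 1282 CPM. Untreated lines differed too: the PELO line without dox at 96 h was above the NTC line for 11 of the 13, and the HBS1L line without dox at 48 h for all 13 (median log2 difference 0.64). Of all genes, 10.3% and 18.7% were higher in these comparisons, in the order given.

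Of 15 tested genes of mitochondrial gene expression (16 in the list), 7 rose and 7 fell in the PELO line at 96 h. Among all genes 34.4% rose and 32.5% fell there. MTRF1L, a mitochondrial release factor, rose by 1.04 ± 0.043 (adjusted p = 4.05e-22), and TFB2M, a mitochondrial transcription factor, by 0.71 ± 0.052 (adjusted p = 6.19e-15). MTRF1L fell by 0.30 in the NTC line at 48 h (-0.30 ± 0.044, adjusted p = 8.53e-07).

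The cytosolic heat shock list of 12 genes serves as a comparison outside mitochondria. In the NTC line dox raised 7 and lowered 2 at 48 h, against 19.0% and 16.0% of all genes. At 96 h it raised 5, against 3.89%. HSPA1B, the inducible cytosolic HSP70, rose by 0.66 ± 0.062 at 48 h (adjusted p = 6.91e-11), and its near-identical copy HSPA1A cannot be told apart from it with certainty. In the PELO line at 96 h 7 rose and 4 fell, against 34.4% and 32.5% of all genes. The smallest adjusted p was that of CHORDC1, a cochaperone of HSP90, which went from 57.8 to 178.8 CPM (1.63 ± 0.061, adjusted p = 3.4e-23).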

How the data were processed

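The deposited count table holds expected counts per Ensembl gene, which are fractional: 45.6% of the values above 0 were not whole. The authors' second table holds log2 CPM, each log2 value being the count with 0.5 added, logged, and shifted by a constant of its library. Per the submitters' processing notes the tools were DRAGEN, Subread, featureCounts, edgeR and limma, with the build GRCh38.p13. Versions, options and annotation are not stated in any source used here. Gene coordinates, exonic lengths and overlaps came from GENCODE 29, and 61445 of 61544 gene IDs matched a symbol.

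After rounding to whole numbers, the expected counts were analysed with edgeR 4.0.16 in R 4.3.3. The filter filterByExpr, set to min.count 10 and min.total.count 15, left 20767 genes. Libraries were scaled by the trimmed mean of M values. One fit with a mean per group over all 36 libraries gave 17 contrasts by the quasi-likelihood F test, with Benjamini-Hochberg adjustment over all genes tested and a threshold of 0.05. Errors of log2 changes are the size of the change divided by the square root of F. The procedure was tested on simulated counts for the change with dox in the NTC line at 48 h only. The simulation gave all genes the same spread and set no library apart. It held no difference between responses, so it does not check the other contrasts. Replicates of a group differed by more than sampling noise: chi-square per degree of freedom was 1.81 to 19.1 over 36 pairs, so none was counted as a duplicate. In 7 groups 1 library stood apart from the other pair, as the report gives.

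Alternatives were RLE normalization, no filter on low counts, DESeq2 1.42.0, limma 3.58.1 on the authors' log2 table, a replicate block, only the libraries of 1 time, and leaving out each library. The sum of HSPE1 with HSPE1-MOB4 and the fit that leaves out those 7 libraries were chosen after seeing the data. Named genes were the 10 members, the 2 targets, at most 2 called genes with the smallest adjusted p per list and comparison, of which some are printed, and the 3 most similar genes per member. EIF2AK1, HSPA1A and the named cell type markers lie outside that rule and were chosen after their values were seen. The members and lists were chosen with earlier results of these data known.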

Additional observations from a re-analysis of the deposited data

Results flagged for a closer look

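The dox response of a gene differed between 2 lines, or between 2 times in the NTC line, in 33 of 70 tests, each by a test of the difference itself with edgeR. Of all genes tested, 34.6% were called over the same 7 comparisons. The share was lowest for the HBS1L against the NTC line at 48 h (3.8%, with 3 of the 10 genes called) and highest for the PELO against the HBS1L line at 96 h (55.5%, with 7 of 10). The values below are differences of log2 changes, and their adjusted p and SE are given in the report. A positive value means a higher response in the line or time named first. No explanation of these differences was tested.

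Between the PELO and NTC lines at 48 h the values were 0.95 for HSPA9, 0.57 for LONP1, -0.93 for HSPE1, -0.20 for OMA1, -0.16 for HSPD1 and -0.15 for TRAP1. At 96 h they were 0.61 for HSPA9, 0.24 for YME1L1, -0.58 for TRAP1, -0.34 for CLPP, -0.20 for HSPD1 and -0.12 for LONP1. LONP1 is the one gene whose difference was positive at 48 h and negative at 96 h.

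Between the HBS1L and NTC lines at 48 h the values were 0.28 for LONP1, 0.23 for HSPA9 and -0.47 for HSPE1. At 96 h they were 0.27 for LONP1, 0.17 for HSPA9 and -0.17 for HSPD1.

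Between the PELO and HBS1L lines at 48 h the values were 0.72 for HSPA9, 0.30 for LONP1, 0.15 for YME1L1 and -0.46 for HSPE1. At 96 h they were 0.45 for HSPA9, 0.31 for YME1L1, -0.63 for TRAP1, -0.46 for CLPP, -0.39 for LONP1, -0.23 for DELE1 and -0.21 for OMA1.

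Between 96 h and 48 h in the NTC line the values were 0.79 for LONP1, 0.70 for HSPA9, -0.71 for HSPE1 and -0.24 for OMA1. The library numbers of the 2 times form separate blocks, so time and block cannot be told apart.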

How the results depend on the processing

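Of the 170 changes tested (10 genes in 17 comparisons), 77 were called, and 57 of these stayed called under each alternative named in the processing section other than those chosen after seeing the data, and without any 1 library. Among 1010 values under the alternatives 26 lost a call, 13 gained one and none that was called changed direction. Leaving out each library gave 1440 values, of which 63 lost a call and 13 gained one. Values called in neither setting changed sign 26 times under the alternatives, the largest of these being 0.039 in size. Counts of called genes moved as follows, and the cause was not tested. In the NTC line at 96 h the count up went from 0 to 1 under DESeq2, and the count down from 1 to 0 with no filter. With only the libraries of the time, 1 gene was down instead of 0 in the HBS1L line at 96 h. Beyond the NTC response, the PELO line at 48 h had 2 down instead of 4 under RLE normalization, DESeq2 and with only the libraries of the time. With no filter the HBS1L line had 1 up instead of 2 at 48 h and at 96 h, and 0 down instead of 1 at 96 h. With only the libraries of the time it had 1 up and 0 down at 96 h. For the NTC response at 96 h against 48 h, no filter left 1 down instead of 2. The untreated PELO line at 96 h had 2 up instead of 1 under limma and DESeq2. With the 7 libraries that stand apart left out, chosen after seeing the data, 5 of the 170 changes lost their call and 7 gained one, and the untreated PELO line at 96 h had 2 up and 2 down instead of 1 and 1.

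The same-numbered replicates did not deviate together: over 18 pairs the correlation was -0.19 to 0.096 with 0 pairs over 0.1. Pairs of unlike number ranged from -0.21 to 0.24. With 3 libraries per group this cannot tell whether same-numbered libraries share a culture or handling. With a replicate block 167 of 170 results kept their call and 3 lost it, and the count down of the HBS1L line beyond the NTC response at 96 h went from 1 to 0.

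Without 1 library at a time, the counts ranged from 0 to 1 up and 0 to 1 down in the NTC line at 96 h. They ranged from 2 to 4 down for the PELO line beyond the NTC response at 48 h, and from 4 to 6 down at 96 h. For the HBS1L line beyond that response at 96 h they ranged from 1 to 2 up and 0 to 1 down. The NTC response at 96 h against 48 h had 1 to 2 down. The untreated HBS1L line at 48 h had 3 to 5 up and 2 to 4 down, and the untreated PELO line at 96 h had 1 to 2 up. Among genes not called, HSPD1 in the NTC line at 96 h passed the test without replicate 2 of the dox libraries. OMA1 has the fewest counts, 660 to 1317 per library, which limits the precision of its changes.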
